A study of Mus musculus with 6 samples.

Results

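The collagen gene family was followed in the optic nerve of adult mice in which the tumour suppressor gene Nf1 had been targeted with an inducible Cre driven by a myelin gene promoter. The family was chosen with earlier results of these data known. Its members were then taken by symbol alone, as the rows whose name reads Col, a number, a and a number. This gave 44 of the 24062 genes in the deposited count tables, and all 44 passed the filter on low counts. By class they were 11 fibrillar collagens, 6 type IV chains of basement membranes, 6 type VI chains, 9 FACIT collagens (fibril-associated collagens with interrupted triple helices) and 12 others. One listed name, Col21a1, had no row.

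Amplified total RNA of optic nerves was sequenced from 3 NF1 f/f libraries and 3 control libraries. NF1 f/f animals carried the transgene PlpCreERT2, a tamoxifen-dependent Cre recombinase driven by the promoter of the myelin gene Plp, and 2 floxed Nf1 alleles (PlpCreERT2;Nf1flox/flox). Controls had no Cre. Control library 1 was Nf1flox/flox and control libraries 2 and 3 were Nf1flox/+. Tamoxifen was given to adults over 2 months old, and nerves were taken 1 month later, in both groups per the labels. Plp is expressed mainly by oligodendrocytes, the myelin-forming cells of the central nervous system, whereas the RNA came from all cells in each sample. Libraries were numbered as deposited, and a number shared by both groups means nothing. The labels do not say whether every library is its own animal, and p-values therefore reflect library spread, some of which may be technical.

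Collagens are secreted or membrane-bound proteins whose alpha chains wind into a triple helix, which needs a glycine in each unit of the repeated sequence. Fibrillar collagens assemble into the tension-bearing fibrils of sheaths and septa, type IV chains form the meshwork of basement membranes, and FACIT collagens sit on fibril surfaces. In nervous tissue most collagen is found in meninges and around vessels, and fibroblasts and mural cells are its main makers, while a few members are made by neurons. In the optic nerve the pial sheath, its septa and the vessel walls are the known collagen-bearing structures.

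Libraries held 13555756 to 19012262 counts in NF1 f/f nerves and 21307855 to 23662698 in controls. NF1 f/f library 2 stood apart from the other two of its group in many of the values below, and a fit without it is given beside the results that turn on it. Over all genes it was closer to the controls than to its own group. The chi-square per degree of freedom between counts was 67.23, 63.15 and 67.2 with control libraries 1, 2 and 3. With NF1 f/f libraries 1 and 3 it was 191.56 and 214.89. Markers of mature oligodendrocytes, 8 genes, summed to 5349.6, 33534 and 4608 CPM (counts scaled to each library's size, the usual counts-per-million unit) in NF1 f/f libraries 1, 2 and 3, against 25621 to 26366 CPM in controls, with none at 0. None passed by edgeR, and all 8 fell without NF1 f/f library 2, where 13.8% of all genes did. The ribosomal RNA precursor Rn45s took 1.73% to 8.21% of counts in NF1 f/f libraries and 3.53% to 10.9% in controls. Xist, transcribed from the inactive X chromosome, had 2076, 2313 and 3611 CPM in NF1 f/f libraries 1, 2 and 3, against 2.87, 3016 and 1.41 CPM in control libraries 1, 2 and 3. Nf1 itself had 304, 226 and 433 CPM in NF1 f/f libraries and 394, 400 and 337 CPM in controls, and a whole-gene count cannot show loss of the floxed part.

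Most collagens were lower in NF1 f/f nerves and a small set was higher. Taken as a sum, the 44 genes held 439, 922 and 603 CPM in NF1 f/f libraries 1, 2 and 3, against 1184, 1198 and 1202 CPM in control libraries 1, 2 and 3. The controls lay close together by that measure, whereas the NF1 f/f libraries were all below them and differed among themselves, library 2 being the highest. Fitted log2 fold changes were negative for 35 genes and positive for 9, with a median of -0.93, where 50.1% of the 16315 genes tested were negative and their median was 0.00. Col19a1 and Col11a1 rose, and no collagen fell at an edgeR adjusted p under 0.05. DESeq2 called 11, with 3 higher and 8 lower, the 8 being Col1a1, Col1a2, Col3a1, Col6a2, Col8a1, Col8a2, Col12a1 and Col14a1, where DESeq2 called 9.19% of all genes it tested, 2.73% lower. By edgeR, these 2 are 4.55% of the family, where 3.29% of all genes tested passed, 2.95% higher and 0.337% lower. Without a correction for multiple tests, 13 collagens were lower and 3 higher at p under 0.05 by edgeR, where 8.02% and 11.2% of all genes were.

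**Figure D1:**
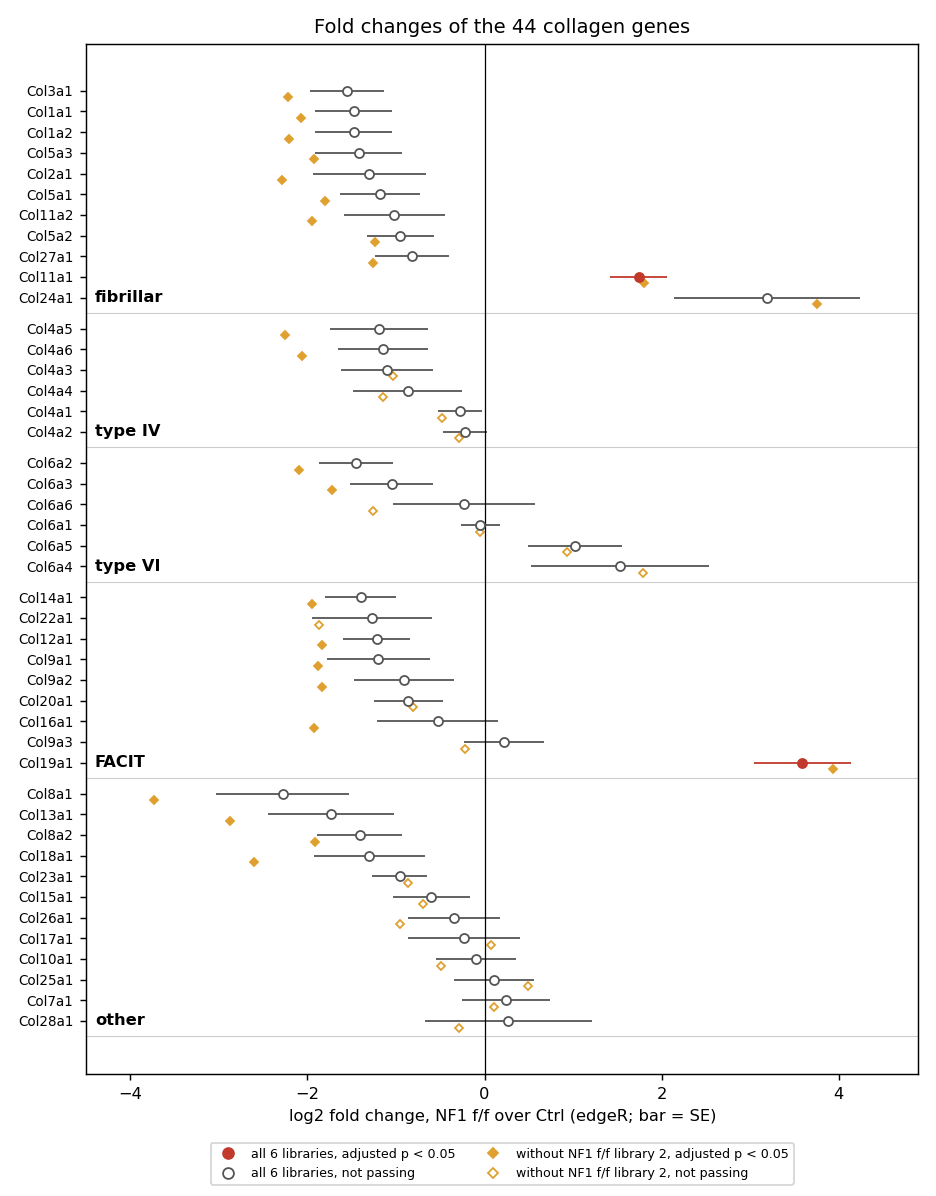
Log2 fold changes, NF1 f/f over control, of the 44 collagen genes by class, from edgeR with all 6 libraries (circles, bars are SE) and without NF1 f/f library 2 (diamonds). Red circles and filled diamonds passed an adjusted p of 0.05: Col19a1 and Col11a1 pass to the right of 0 with all libraries, and 22 genes pass to the left of 0 only in the fit without that library.

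Separation between the groups was more frequent than the calls. In 21 of the 44 genes, or 47.7%, all 3 NF1 f/f libraries were lower than every control, where 11.5% of all genes tested did so. These 21 were 7 fibrillar, 3 type IV, 2 type VI, 4 FACIT and 5 other collagens. The opposite held for Col19a1 and Col11a1 only, 4.55% against 12.5% of all genes, and 24% of all genes separated in either direction. The distance from controls was uneven within the NF1 f/f group: the median deviation from the control mean was -1.61, -0.25 and -0.80 in libraries 1, 2 and 3, on log2(CPM + 0.5). Library 2 had the highest value of its group in 31 of the 44 genes. Leaving it out therefore lowers the NF1 f/f mean of those genes by construction, and that fit is not separate evidence of a drop. When it was left out, 22 collagens fell and 3 rose by edgeR, 50.0% lower where that fit called 13.8% of all genes lower and 27% in either direction, and the median became -1.26. Leaving out NF1 f/f library 1 or 3 instead gave 2 and 1 collagen calls, where 164 and 199 of all genes were called. Leaving out any 1 control gave 0, where 51, 81 and 112 of all genes were called without controls 1, 2 and 3. These fits thus called few genes of any kind. The 22 that fell without NF1 f/f library 2 were Col1a1, Col1a2, Col2a1, Col3a1, Col4a5, Col4a6, Col5a1, Col5a2, Col5a3, Col6a2, Col6a3, Col8a1, Col8a2, Col9a1, Col9a2, Col11a2, Col12a1, Col13a1, Col14a1, Col16a1, Col18a1 and Col27a1. In bulk RNA, fewer cells of a type, less RNA per cell and a different mix of tissue in the sample cannot be told apart.

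**Figure D2:**
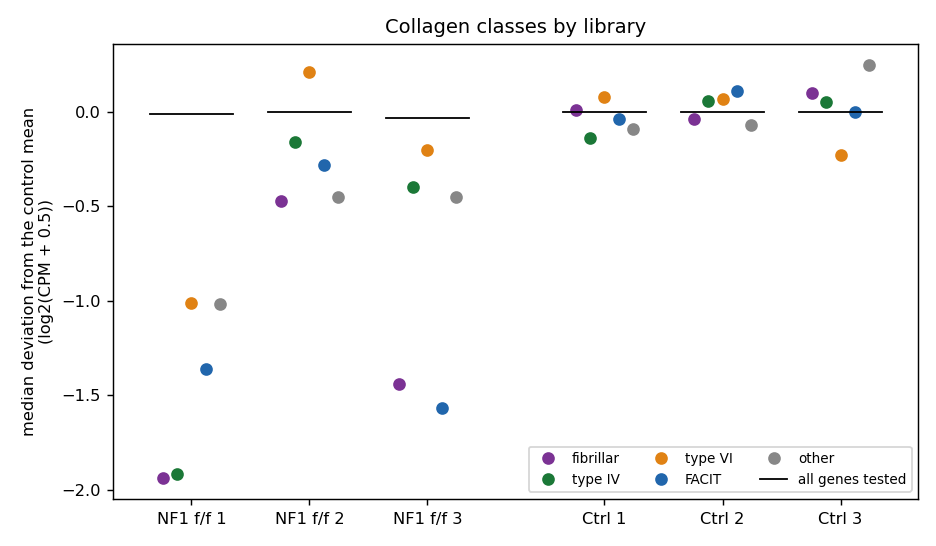
Median deviation from the control mean, in log2(CPM + 0.5), of each collagen class in each library, with the median of all genes tested as a black line. Fibrillar collagens lie at -1.94, -0.47 and -1.44 in NF1 f/f libraries 1, 2 and 3, while all classes stay within 0.25 of 0 in the 3 control libraries.

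Marker genes of other cell types of the nerve and of neurons are given beside these values. The 8 fibroblast markers summed to 339, 1844 and 421 CPM in NF1 f/f libraries 1, 2 and 3, against 3104, 2964 and 2287 CPM in controls, and all 8 log2 fold changes were negative with a median of -1.62, although none passed by edgeR. Without NF1 f/f library 2 all 8 fell, with a median of -2.71, where 13.8% of all genes fell. Pericyte and smooth muscle markers summed to 135, 416 and 122 CPM in NF1 f/f libraries and 406, 450.4 and 512 CPM in controls, and endothelial markers to 173, 339 and 232 CPM in NF1 f/f libraries and 463, 433 and 401 CPM in controls. No pericyte or smooth muscle marker and 1 of the 8 endothelial markers fell by edgeR, where 0.337% of all genes tested did. Without NF1 f/f library 2 the counts were 7 of 8 and 6 of 8, where 13.8% of all genes fell. Neuron markers ran the other way, with 5899, 1636 and 4146 CPM in NF1 f/f libraries against 527, 683 and 979.7 CPM in controls, and 4 of 8 rose, where 2.95% of all genes tested did. Of 8 striatal projection neuron markers all 8 rose, and they summed to 2049.9, 1261 and 1372 CPM in NF1 f/f libraries and 106, 101 and 142 CPM in controls. No marker of these 5 lists was at 0 in any library, and their part in the collagen values was not tested. All marker lists were chosen with earlier results of these data known. Their counts therefore describe the libraries and are not separate evidence. Bone and cartilage markers were near the detection limit in both groups, at 8.85 to 10.6 CPM in NF1 f/f libraries and 9.76 to 12.6 CPM in controls over 6 genes, with Matn1, Bglap or Ibsp at 0 in 4 of the 6 libraries.

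Of the 11 fibrillar genes 1 rose, 0 fell by edgeR and 9 had negative fold changes, with a median of -1.18 (-1.93 without NF1 f/f library 2, where 9 fell and 2 rose, against 13.8% and 13.2% of all genes). The type I and type III collagens, which form the bulk of fibrils in connective tissue, were the most abundant of them per length in controls. Col1a2 (chromosome 6, 4505697 to 4541543, plus strand, 52 exons, mm10) encodes the alpha 2 chain of type I collagen. It had 43.4, 154 and 59.6 CPM in NF1 f/f libraries 1, 2 and 3, against 255, 239.5 and 222 CPM in control libraries 1, 2 and 3. All 3 NF1 f/f libraries were lower than every control, library 2 by the least. On the log2 scale this was -1.48 (SE 0.43, edgeR adjusted p 0.109).

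Col1a1, the alpha 1 chain (chromosome 11, 94936270 to 94951856, plus strand, 51 exons), had 11.1, 40.7 and 21.1 CPM in NF1 f/f libraries and 84.2, 60.8 and 58.0 CPM in controls. It too had -1.48 on that scale (SE 0.43, edgeR adjusted p 0.106), and its groups did not overlap either. Col3a1, which forms thin fibrils together with type I (chromosome 1, 45311538 to 45349706, plus strand, 51 exons), had 19.2, 65.5 and 27.8 CPM in NF1 f/f libraries and 92.0, 122 and 115 CPM in controls. Col3a1 had the smallest p of any collagen with a negative fold change, with -1.55 on the log2 scale (SE 0.42, edgeR adjusted p 0.0877). In the fit without NF1 f/f library 2 the 3 genes passed, at -2.21, -2.07 and -2.22 for Col1a2, Col1a1 and Col3a1 (edgeR adjusted p 8.89e-05, 0.000934 and 0.000166).

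The proportion of the type I chains overlapped between the groups. Per length, in FPKM (CPM divided by the exon length in kilobases), Col1a1 stood at 0.28, 0.29 and 0.388 of Col1a2 in NF1 f/f libraries 1, 2 and 3, and at 0.362, 0.278 and 0.287 in controls. The log2 ratio differed by 0.04 (two-sided exact permutation p 0.6, 0.8 adjusted over 5 ratios, where the smallest possible p is 0.1). Col3a1 stood at 1.46, 1.36 and 1.11 of Col1a1 in NF1 f/f libraries and at 0.923, 1.69 and 1.67 in controls, a log2 difference of -0.08 (exact permutation p 0.8, adjusted 0.8). The levels behind these ratios did not overlap between the groups.

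The stretches of 250 bases before the RefSeq starts of Col1a2 and Col3a1 (GRCm38.p6) are shown because these are the most abundant fibrillar gene and the one with the smallest p among the lower collagens. Capitals mark 3 short motifs, each searched on both strands so that the reverse form is marked too. The first is CCAAT, the motif of the CCAAT box. The second is TATAAA, the motif of the TATA box. The last is GGGCGG, the core of the GC box.
Col1a2, chr6:4505368-4505617, plus strand: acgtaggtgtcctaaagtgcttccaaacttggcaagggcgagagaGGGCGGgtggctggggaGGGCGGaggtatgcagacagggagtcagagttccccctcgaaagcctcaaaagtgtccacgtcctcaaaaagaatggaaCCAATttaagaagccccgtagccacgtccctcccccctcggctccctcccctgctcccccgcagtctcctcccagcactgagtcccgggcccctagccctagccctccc
Col3a1, chr1:45311288-45311537, plus strand: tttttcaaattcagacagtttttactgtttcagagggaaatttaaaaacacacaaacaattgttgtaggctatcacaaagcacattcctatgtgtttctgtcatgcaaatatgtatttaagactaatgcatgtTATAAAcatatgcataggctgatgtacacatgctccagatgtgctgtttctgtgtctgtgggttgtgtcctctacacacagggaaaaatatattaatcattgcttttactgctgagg
The Col1a2 stretch held CCAAT at 109 bases and GGGCGG at 205 and 188 bases before the start, and the Col3a1 stretch held TATAAA at 117 bases before it. They differ in base composition, at 62.0% and 35.2% G and C. Over the 32851 promoters of the table, 33.8% held CCAAT, 12.4% TATAAA and 32.7% GGGCGG in the same window, and over the 38 promoters listed for 35 collagen genes the shares were 34.2%, 13.2% and 57.9%.

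Type V collagen, which starts and limits the width of type I fibrils, was lower as well. Col5a1 had 7.23, 29.4 and 15.1 CPM in NF1 f/f libraries and 47.6, 38.6 and 31.2 CPM in controls (-1.18 on the log2 scale, SE 0.45, edgeR adjusted p 0.201). Col5a2 had 6.91, 20 and 16.9 CPM in NF1 f/f libraries and 23.9, 30.4 and 30 CPM in controls (-0.95, SE 0.38, edgeR adjusted p 0.220). In both genes the highest NF1 f/f library lay just under the lowest control, and it was library 2. Without that library both fell, Col5a1 by 1.80 and Col5a2 by 1.24 on the log2 scale (edgeR adjusted p 0.00338 and 0.0285). Col5a3 had a log2 fold change of -1.42 at a lower level, with 23 to 157 counts per library, and its groups did not overlap. Col27a1, a minor fibrillar collagen, had -0.82 and did not overlap. Col2a1, the main fibrillar collagen of cartilage and vitreous, and Col11a2 had -1.30 and -1.02 with overlapping groups.

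Against these, the fibrillar genes Col11a1 and Col24a1 were higher. Col11a1 encodes a chain of type XI collagen that nucleates fibrils in cartilage (chromosome 3, 114030540 to 114220326, plus strand, 67 exons). It had 29.2, 42.5 and 66.3 CPM in NF1 f/f libraries 1, 2 and 3, against 13.8, 12.2 and 15.2 CPM in control libraries 1, 2 and 3. The lowest NF1 f/f library lay well above the highest control. Col11a1 rose by 1.74 on the log2 scale, 3.35-fold (SE 0.32, edgeR adjusted p 0.0260), and by a like amount without NF1 f/f library 2 (1.80, adjusted p 0.00218). Its partner chain in cartilage, Col11a2, had 1.94, 10.2 and 3.49 CPM in NF1 f/f libraries and 10.3, 13.1 and 8.21 CPM in controls.

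Col24a1, a minor fibrillar collagen, had 3.62, 0.227 and 11 CPM in NF1 f/f libraries and 0.396, 0.498 and 0.705 CPM in controls. NF1 f/f library 2, with 3 counts, lay below all controls, so the groups overlapped, and the fitted 3.19 on the log2 scale (SE 1.05, edgeR adjusted p 0.145) rests on libraries 1 and 3. Without library 2 it was 3.75 (edgeR adjusted p 0.000944). Neuron markers were likewise lowest in NF1 f/f library 2 of that group, and a link was not tested.

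Col19a1, a FACIT collagen made in the mouse by subsets of inhibitory neurons, had the smallest p of all 44 genes (chromosome 1, 24257683 to 24587437, minus strand, 51 exons). It had 20.9, 5.97 and 11.9 CPM in NF1 f/f libraries and 1.44, 0.705 and 1.08 CPM in controls. Every NF1 f/f library was above every control, with library 2 the lowest of its group. The neuron marker sums were also lowest there, at 5899, 1636 and 4146 CPM. Col11a1, the other collagen that passed, was instead lowest in library 1, at 29.2, 42.5 and 66.3 CPM. A link between these genes and the neuron markers was not tested. Col19a1 rose by 3.59 on the log2 scale, 12.0-fold (SE 0.55, edgeR adjusted p 0.0128). These levels rest on 79 to 387 counts per library in NF1 f/f nerves and 17 to 29 in controls. Both calls were lost without any single control library, at edgeR adjusted p 0.156, 0.166 and 0.106 for Col11a1 and 0.0787, 0.0803 and 0.0770 for Col19a1 without controls 1, 2 and 3. Col11a1 also lost its call without NF1 f/f library 3 (adjusted p 0.0660). The log2 fold changes stayed between 1.38 and 1.99 for Col11a1 and between 3.05 and 3.94 for Col19a1 over these 6 fits. With the log2 level of Xist as a covariate they were 1.87 and 4.16 and neither passed (edgeR adjusted p 0.421 and 0.267).

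The upstream stretches of these 2 genes are shown as those of the collagens that passed, with the same capitals.
Col11a1, chr3:114030290-114030539, plus strand: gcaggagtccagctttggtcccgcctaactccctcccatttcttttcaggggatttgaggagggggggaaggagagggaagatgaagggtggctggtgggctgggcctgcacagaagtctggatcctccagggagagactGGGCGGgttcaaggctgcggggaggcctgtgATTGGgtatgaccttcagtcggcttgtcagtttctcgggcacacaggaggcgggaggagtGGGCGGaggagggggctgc
Col19a1, chr1:24587438-24587687, minus strand: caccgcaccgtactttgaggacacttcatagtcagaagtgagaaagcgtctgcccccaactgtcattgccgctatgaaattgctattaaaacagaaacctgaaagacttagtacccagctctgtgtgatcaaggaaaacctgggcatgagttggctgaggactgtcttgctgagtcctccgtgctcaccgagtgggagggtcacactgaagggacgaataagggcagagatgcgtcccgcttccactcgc
None of the 3 motifs was found in the Col19a1 window, while that of Col11a1 held CCAAT in its reverse form at 79 bases and GGGCGG at 110 and 19 bases before the start.

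**Figure D3:**
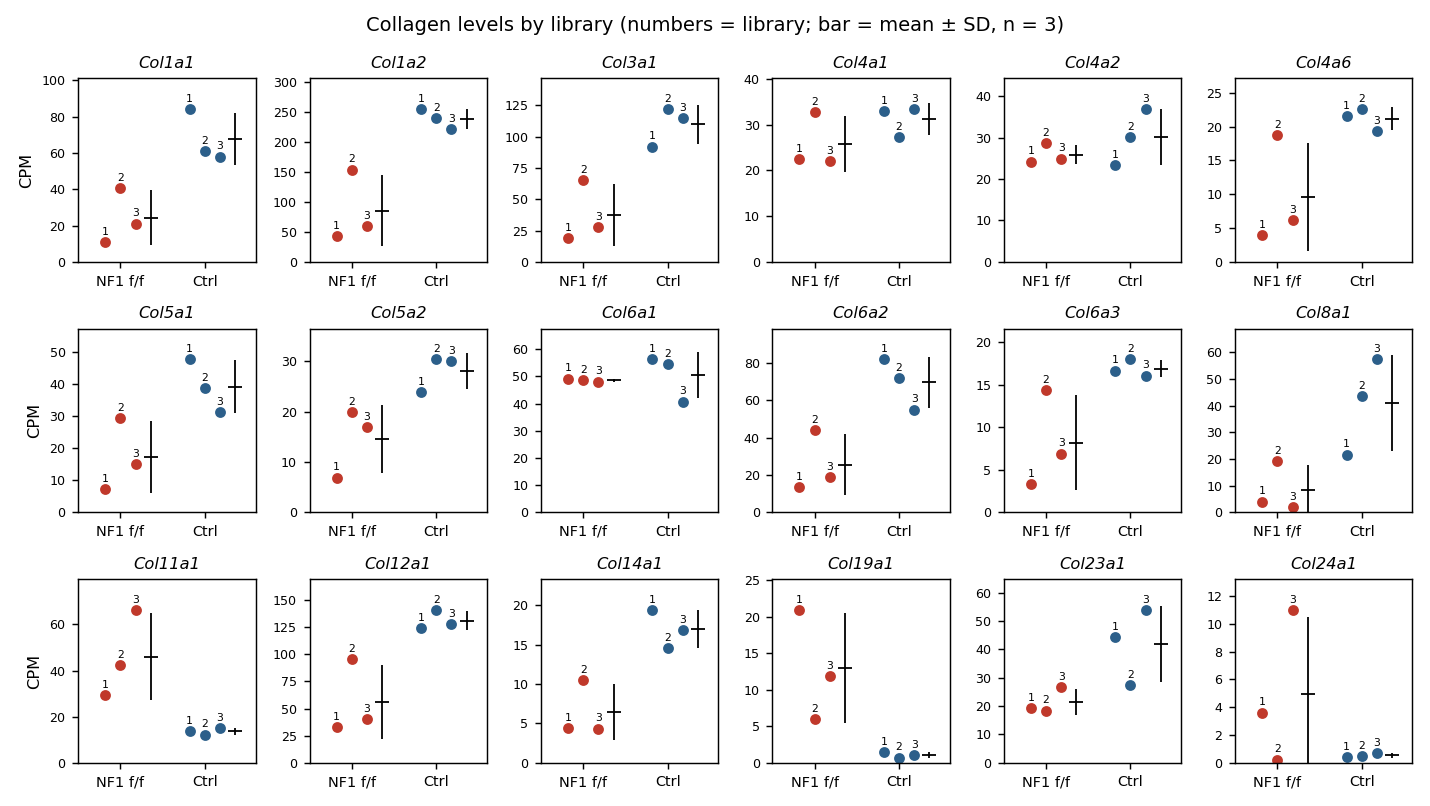
CPM of 18 collagen genes in each library, NF1 f/f left and control right, with points numbered by library and bars for the mean ± SD (n = 3), cut at 0 CPM. Col11a1 and Col19a1 stand above all controls in each NF1 f/f library, Col6a1 is level at 48.1 to 49.2 CPM in NF1 f/f libraries, and most others are lowest in NF1 f/f libraries 1 and 3.

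Of the 6 type IV chains none passed by edgeR, 0 of them at an unadjusted p under 0.05, and all 6 fold changes were negative with a median of -0.99 (-1.09 without NF1 f/f library 2, where 2 fell, against 13.8% of all genes). Col4a1 and Col4a2 (chromosome 8, 11198423 to 11312826 on the minus strand and 11312829 to 11449287 on the plus strand) make the collagen found in nearly every basement membrane. Col4a1 had 22.4, 32.7 and 22.0 CPM in NF1 f/f libraries and 33.0, 27.2 and 33.4 CPM in controls. Col4a2 had 24.2, 28.6 and 24.9 CPM in NF1 f/f libraries and 23.4, 30.2 and 36.9 CPM in controls. The groups overlapped in both, at -0.28 (SE 0.25, edgeR adjusted p 0.590) and -0.22 (SE 0.25, edgeR adjusted p 0.680). Neither passed without NF1 f/f library 2, at -0.48 and -0.29.

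These 2 genes lie head to head, and their RefSeq starts are shown on the plus strand of GRCm38.p6 with the bases from one start to the other in capitals.
Col4a2 and Col4a1 starts, chr8:11312801-11312830, plus strand: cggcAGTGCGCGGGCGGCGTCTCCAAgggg
The capitals cover 22 bases, so the RefSeq transcripts begin inside one another, whereas the annotation behind the counts leaves 2 bases between the genes. Counts were made without strand, but the deposited exons of the pair do not overlap. Per length Col4a1 stood at 0.898, 1.11 and 0.857 of Col4a2 in NF1 f/f libraries and at 1.37, 0.874 and 0.879 in controls, a log2 difference of -0.10 (exact permutation p 0.8, adjusted 0.8 over the 5 ratios).

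The other 4 type IV chains, which replace the common pair in selected basement membranes such as those of kidney, eye and smooth muscle, had log2 fold changes of -0.87 to -1.19. Col4a5 (chromosome X) had 11.9, 41.6 and 7.26 CPM in NF1 f/f libraries and 41.1, 51.1 and 45.9 CPM in controls, so NF1 f/f library 2 reached the control range. Col4a6, its head-to-head neighbour at 1342 bases, had 3.99, 18.7 and 6.14 CPM in NF1 f/f libraries and 21.6, 22.6 and 19.3 CPM in controls, without overlap (-1.15, SE 0.51, edgeR adjusted p 0.266). Both lie on X, and control library 2, the control with high Xist, had the highest Col4a5 and Col4a6 of the controls. The NF1 f/f libraries also had high Xist, at 2076, 2313 and 3611 CPM, and all lay below that control in both genes. This sets them beside 1 control library only, and a link between these genes and Xist was not tested. Without NF1 f/f library 2 both passed, at -2.25 and -2.06 (edgeR adjusted p 0.000296 and 0.000745). Col4a3 and Col4a4, head to head on chromosome 1 with 71 bases between them, had -1.10 and -0.87 at 11 to 229 counts per library, and neither overlapped between groups.

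Of the 6 type VI genes 0 passed by edgeR and 4 had negative fold changes, with a median of -0.14. Without NF1 f/f library 2 the median was -0.65 and 2 fell, against 13.8% of all genes. These were Col6a2, by 2.09, and Col6a3, by 1.72 on the log2 scale (edgeR adjusted p 0.000339 and 0.00486). Within type VI collagen, whose alpha 1, 2 and 3 chains join into beaded microfibrils, the chains differed in their fold changes. Col6a1 (chromosome 10, 76708792 to 76726044, minus strand) had 49.2, 48.5 and 48.1 CPM in NF1 f/f libraries and 56.2, 54.4 and 40.7 CPM in controls, or -0.05 on the log2 scale (SE 0.22, edgeR adjusted p 0.922). Its values in NF1 f/f libraries lay inside the control range. Col6a2, on the same strand 85.4 kb away (chromosome 10, 76595756 to 76623404), had 13.5, 44.1 and 19.0 CPM in NF1 f/f libraries and 81.8, 71.7 and 55.0 CPM in controls, without overlap (-1.45, SE 0.42, edgeR adjusted p 0.106). Col6a3 followed Col6a2, with 3.35, 14.4 and 6.91 CPM in NF1 f/f libraries and 16.7, 18 and 16.1 CPM in controls (-1.05, SE 0.47, edgeR adjusted p 0.265).

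Per length Col6a1 stood at 3.42, 1.03 and 2.37 of Col6a2 in NF1 f/f libraries 1, 2 and 3, and at 0.645, 0.711 and 0.694 in control libraries 1, 2 and 3. The ratio was thus near one value in controls and higher in all 3 NF1 f/f libraries, by 1.57 log2 units (two-sided exact permutation test, p 0.1, which is the lowest this design allows, and 0.25 once adjusted over 5 ratios). Among the 5 ratios the other that separated the groups was Col4a1 to Col1a1, at 1.43, 0.572 and 0.738 in NF1 f/f libraries and 0.278, 0.317 and 0.409 in controls, a difference of 1.36 log2 units (exact permutation p 0.1, adjusted 0.25). Ratios within a library do not depend on the scaling between libraries. Of the chains that can replace alpha 3, Col6a5 had 3.45, 12.3 and 17.2 CPM in NF1 f/f libraries and 5.20, 6.30 and 4.69 CPM in controls (1.02, SE 0.53, edgeR adjusted p 0.331), and Col6a6 and Col6a4 had 21 to 204 and 1 to 38 counts per library, with overlapping groups.

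**Figure D4:**
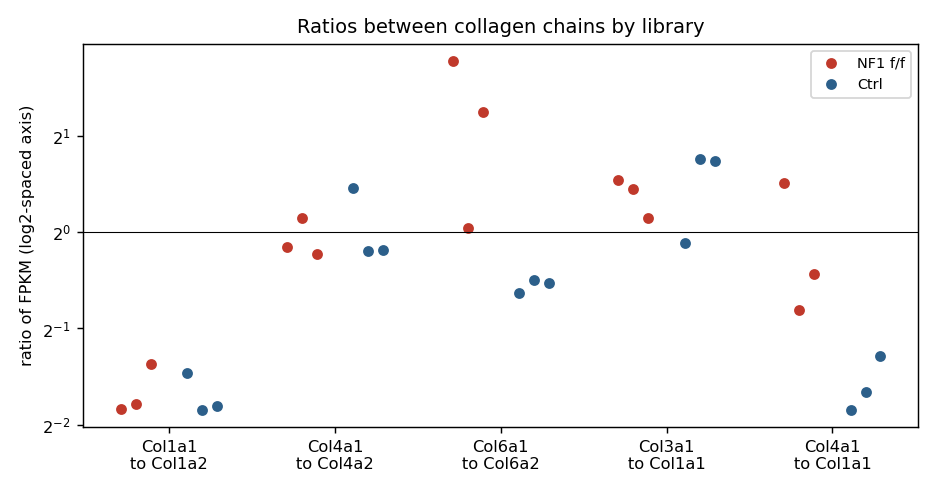
Ratios of FPKM between collagen chains in each library, NF1 f/f left and control right, on a log2-spaced axis. Col6a1 to Col6a2 and Col4a1 to Col1a1 are higher in each NF1 f/f library than in any control, while the other 3 ratios overlap.

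Of the 9 FACIT genes 1, Col19a1, rose, 0 fell by edgeR and 7 had negative fold changes, with a median of -0.91 (-1.84 without NF1 f/f library 2, where 5 fell and 1 rose, against 13.8% and 13.2% of all genes). Types XII and XIV, which sit on type I fibrils, were lower. Col12a1 (chromosome 9, 79598987 to 79718722, minus strand, 66 exons) had 32.7, 95.5 and 40.1 CPM in NF1 f/f libraries and 124, 141 and 128 CPM in controls (-1.22, SE 0.38, edgeR adjusted p 0.131). Col14a1 had 4.37, 10.5 and 4.33 CPM in NF1 f/f libraries and 19.4, 14.6 and 16.8 CPM in controls (-1.40, SE 0.40, edgeR adjusted p 0.10). In both genes NF1 f/f libraries 1 and 3 were close together and library 2 lay between them and the controls. Without it both fell, Col12a1 by 1.84 and Col14a1 by 1.95 on the log2 scale (edgeR adjusted p 0.000174 and 0.00091). Of the type IX chains, which decorate cartilage fibrils, Col9a1 and Col9a2 had -1.20 and -0.91 with overlapping groups. Col9a3 had 0.22, and exons of Tcfl5 overlap it, which may affect its counts in either direction. Col20a1 and Col22a1 did not overlap between groups, at -0.86 and -1.27, the second with 4 to 84 counts per library, and Col16a1 had -0.53.

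Col9a1 and Col19a1 are neighbours, tail to tail on chromosome 1 with 4.94 kb between their annotated ends, and their values went in opposite directions. Col9a1 had 1.13, 2.95 and 0.907 CPM in NF1 f/f libraries and 5.30, 3.44 and 2.70 CPM in controls, where Col19a1 was at 20.9, 5.97 and 11.9 CPM in NF1 f/f libraries and at 1.44, 0.705 and 1.08 CPM in controls. Col3a1 and Col5a2, tail to tail with 24.6 kb between them, were both lower. Over the 8 pairs of members less than 150 kb apart, 6 had fold changes of the same sign. As 35 of the 44 members were negative, most pairs of any members would share a sign, and some of these pairs share a gene. Across the 44 genes, which are not independent replicates, Spearman's rho of the log2 fold change was 0.17 with genomic span and 0.26 with exon length. With the control level per length it was -0.43. The control level is also the denominator of the fold change, which by itself pushes that rho below 0, so no conclusion is drawn from it.

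Of the 12 remaining collagens 0 passed by edgeR and 9 had negative fold changes, with a median of -0.47 (-0.78 without NF1 f/f library 2, where 4 fell, against 13.8% of all genes). Among them Col8a1 had the most negative fold change of the family. It encodes a short-chain collagen of vessel walls and of Descemet's membrane in the eye, and had 4.05, 19.3 and 2.02 CPM in NF1 f/f libraries and 21.6, 43.6 and 57.3 CPM in controls (chromosome 16, 57624256 to 57754737, minus strand). NF1 f/f library 2 lay just under control library 1, and the value on the log2 scale was -2.28 (SE 0.75, edgeR adjusted p 0.143), or -3.73 without library 2 (edgeR adjusted p 0.000297). Its relative Col8a2 had -1.41 without overlap. Col13a1, a transmembrane collagen of neuromuscular junctions, had -1.73 on 7 to 138 counts per library and also did not overlap.

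Of the other transmembrane collagens, Col23a1 had 19.3, 18.4 and 26.7 CPM in NF1 f/f libraries and 44.3, 27.3 and 53.9 CPM in controls (-0.96, SE 0.31, edgeR adjusted p 0.132), and its value without NF1 f/f library 2, -0.86, was no larger. Col25a1, a neuronal transmembrane collagen first known from amyloid plaques in human brain, had 51.3, 18.2 and 66.4 CPM in NF1 f/f libraries and 37.7, 29.7 and 58.7 CPM in controls. It overlapped fully between groups (0.11, SE 0.45, edgeR adjusted p 0.922). Col17a1, a component of hemidesmosomes, had -0.23 at 8 to 43 counts per library.

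Col15a1 and Col18a1, basement-membrane collagens whose ends are cut to the fragments restin and endostatin, had -0.60 and -1.30. Col18a1 passed without NF1 f/f library 2, at -2.60 (edgeR adjusted p 0.000324), and Col15a1 did not, at -0.69. Col7a1, the anchoring-fibril collagen of skin, whose exons overlap Mir711, had 0.24, Col10a1 of growth-plate cartilage -0.10, and Col26a1 -0.34. Col28a1, known from peripheral nerve in the mouse, had 0.27 on 3 to 30 counts per library, so a change was not detectable at this depth.

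In control nerves the order of levels per length was led by Col1a2 at 46.4 ± 3.19 FPKM, followed by Col3a1 at 19.7 ± 2.82, Col6a2 at 18.6 ± 3.63, Col1a1 at 14.4 ± 3.06, Col6a1 at 12.7 ± 2.13 and Col12a1 at 11.2 ± 0.767 FPKM (SD, n = 3). From Col3a1 on, the ranges of neighbours in this order overlapped over the control libraries. In NF1 f/f nerves the means were led by Col1a2 at 16.6 ± 11.6 FPKM and Col6a1 at 12.2 ± 0.129 FPKM, but Col1a2 was the higher of them in library 2 alone, with 8.45, 29.9 and 11.6 FPKM in libraries 1, 2 and 3 against 12.4, 12.2 and 12.1 FPKM for Col6a1. They were followed by Col9a3 at 8.49 ± 4.28, Col6a2 at 6.85 ± 4.37 and Col3a1 at 6.74 ± 4.43 FPKM (SD, n = 3). Col11a1 stood sixth of 44 in NF1 f/f nerves with 6.32 ± 2.58 FPKM, against 1.89 ± 0.206 FPKM and place 21 in controls. Col19a1 was at 1.22 ± 0.712 FPKM and place 22 in NF1 f/f nerves, against 0.102 ± 0.0347 FPKM and place 42 in controls. Fibrillar genes made up 28.8%, 40.4% and 36.6% of the summed collagen FPKM in NF1 f/f libraries 1, 2 and 3, against 47.4%, 45.4% and 43.3% in controls, while the type IV share was 12.9%, 11.6% and 9.95% in NF1 f/f libraries and 9.13%, 10.1% and 10.4% in controls.

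**Figure D5:**
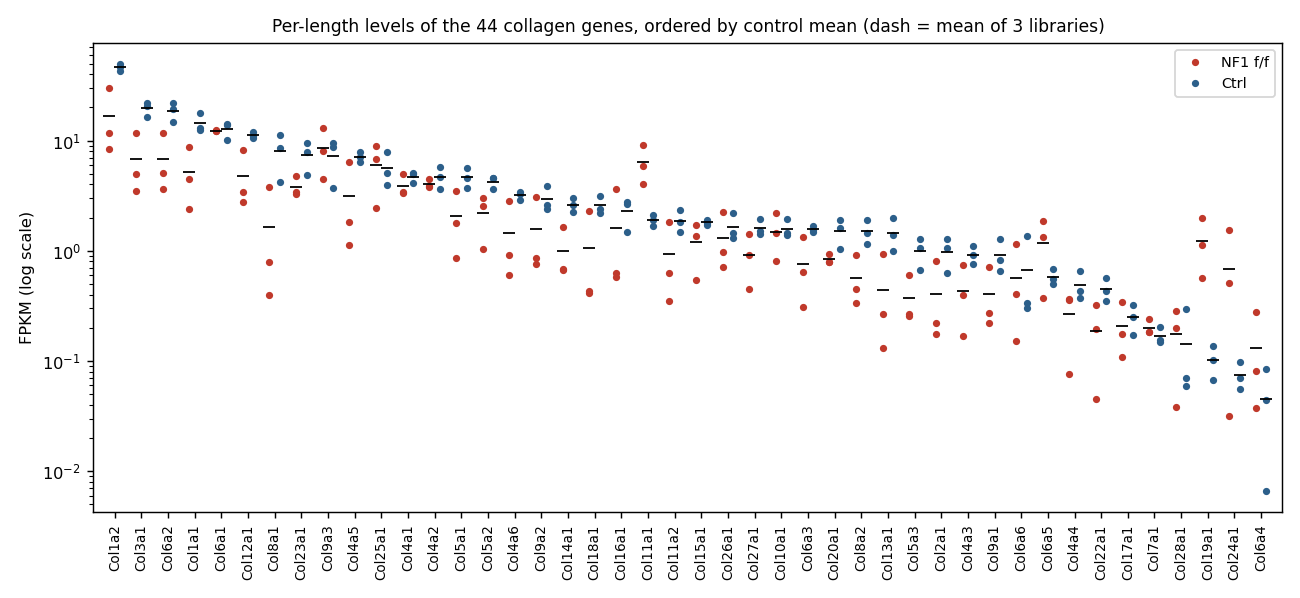
FPKM of the 44 collagen genes on a log axis, ordered by their control mean, with 3 NF1 f/f points left of 3 control points per gene and dashes for the means. Controls run from 46.4 FPKM for Col1a2 to 0.0450 FPKM for Col6a4, and all 3 NF1 f/f points of Col11a1 and of Col19a1 stand above their control points.

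Genes that modify, cut, cross-link, bind and degrade collagen were mostly lower as well. Of 63 tested genes in 6 lists, 1 rose and 2 fell by edgeR, 1.59% and 3.17% against 2.95% and 0.337% of all genes tested, 55 had negative fold changes and the median was -0.74. The gene that rose was Adamts3, a protease that removes the amino-terminal propeptide of type II procollagen, with 103, 51.5 and 117 CPM in NF1 f/f libraries and 4.06, 1.78 and 3.28 CPM in controls (4.9, SE 0.44, edgeR adjusted p 0.00161). Its relative Adamts2, which serves types I and III, had -0.96 with overlapping groups, and fell by 1.73 without NF1 f/f library 2 (edgeR adjusted p 0.000532). The genes that fell were Loxl1, a lysyl oxidase, by 1.92 on the log2 scale (SE 0.42, edgeR adjusted p 0.0433), and Postn, a matricellular protein bound to type I collagen, by 1.37 (SE 0.25, edgeR adjusted p 0.0244). Loxl1 had 2.54, 4.69 and 2.16 CPM in NF1 f/f libraries and 15.7, 11.1 and 8.84 CPM in controls. Postn had 9.23, 8.31 and 8.86 CPM in NF1 f/f libraries and 23.4, 19.9 and 24.9 CPM in controls, and was as low in NF1 f/f library 2 as in the other two.

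All 9 fibril-associated proteins were lower in each NF1 f/f library than in any control, where 11.5% of all genes tested were. Their median was -1.50, and Postn was the one that passed, while all 9 fell without NF1 f/f library 2 (13.8% of all genes did), with a median of -2.42. Of 20 genes of chain modification and folding 0 passed, 6 (30%) were lower without overlap, and the median was -0.49, with Plod2, a lysyl hydroxylase, at -0.90 (edgeR adjusted p 0.151). Of 9 tested collagen receptors 0 passed and 6 (66.7%) were lower without overlap, with a median of -0.92 and the integrin gene Itga10 at -1.47 (edgeR adjusted p 0.0710). Of 11 genes of degradation 0 passed and 3 (27.3%) were lower without overlap, with a median of -0.66 and the collagenase gene Mmp14 at -1.21 (edgeR adjusted p 0.0988). Without NF1 f/f library 2, where 13.8% of all genes fell, these 3 lists had 9, 7 and 4 genes that fell and medians of -0.77, -1.32 and -1.21. The receptor gene Gp6 was too low to be tested. At an unadjusted p under 0.05, 23 of the 63 genes were lower and 1 was higher by edgeR, where 8.02% and 11.2% of all genes were. DESeq2 called 12 of the pathway genes, where it called 9.19% of all genes. Leaving out 1 library gave 1 to 36 calls by edgeR, the 36 without NF1 f/f library 2, where 27% of all genes were called. Without each other library it gave 1, where 51 to 199 of all genes were called. The 8 propeptide genes had a median of -0.21 and the 6 cross-linking genes of -0.54, and without NF1 f/f library 2 these were -1.28 and -0.89. Fibroblast markers include Dcn and Lum of the fibril-associated list, so that list and the marker sum are not independent. The pathway lists too were chosen with earlier results of these data known, so their counts are description.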

How the data were processed

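Each deposited table holds unscaled fragment counts by gene. Per the file headers they were produced by featureCounts 1.4.6-p4 from read pairs assigned to exons, ignoring strand. Alignment used TopHat and the mouse build mm10, per the submitters' processing notes. RNA was amplified with the Ovation RNA-Seq System v2 before Nextera XT libraries were made, per the labels' protocols, so counts include copies from amplification and counting error alone understates their spread.

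The 3 NF1 f/f and 3 control libraries were compared with edgeR 4.0.16 (R 4.3.3): TMM scaling, filterByExpr with a minimum count of 10, the quasi-likelihood test and Benjamini-Hochberg adjustment over the 16315 genes tested, at 0.05. An SE is the size of the log2 fold change over the root of its F value. CPM uses TMM-scaled library sizes, and FPKM divides CPM by the exon length in the files. Chain ratios were compared by exact permutation with SciPy 1.17.1. DESeq2 1.42.0 and limma 3.58.1 served as alternatives, beside other scalings and filters, Xist as a covariate and each library left out. The edgeR script was tested on simulated data. No library pair was alike within sampling noise (lowest chi-square per degree of freedom 48.44).

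The members and the lists (5 collagen classes, 6 pathway lists, 12 marker lists) were chosen with earlier results of these data known. Values per library are given for Col1a1, Col1a2, Col3a1, Col4a1, Col4a2 and Col6a1, for collagens that passed, for the 3 smallest p in each direction, and for non-overlapping collagens with a mean above 10 CPM. Those of Col4a5, Col6a5, Col9a1, Col11a2 and Col25a1 were added after their values were seen. In each pathway list the genes that passed or the smallest p are named, and Adamts2 was added later. Exons of Col7a1 and Col9a3 overlap those of Mir711 and Tcfl5. Upstream sequences and starts come from RefSeq, GRCm38.p6.

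Marker lists not described with the results were as follows, in summed CPM. Astrocyte markers had 1429 to 3122 in NF1 f/f libraries and 3061 to 3333 in controls, with 0 of 6 passing. Schwann cell markers had 85.3 to 134 in NF1 f/f libraries and 48.4 to 58.0 in controls, with 0 of 4 tested passing. Skeletal muscle markers had 2.44 to 4.53 in NF1 f/f libraries and 2.66 to 5.75 in controls, and retina and lens markers 0.68 to 6.74 in NF1 f/f libraries and 2.74 to 4.21 in controls, with 0 of 3 tested passing in each. Blood markers had 20.8 to 33.8 in NF1 f/f libraries and 20.7 to 26.3 in controls, all from 1 gene, the 4 globin names being at 0 in every library.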

Additional observations from a re-analysis of the deposited data

How the results depend on the processing

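With 3 libraries a group, 1 library decides many calls, and genes with few counts are imprecise. The 2 collagen calls stayed 2 under the other 3 scalings, the CPM filter and with Rn45s removed (chosen after seeing the data), and became 3 with limma-voom or no filter, 11 with DESeq2 and 0 with Xist as a covariate, where 0 of all genes passed and 7 collagens had an unadjusted p under 0.05. Leaving out 1 library gave 0 to 25 calls. The 3 pathway calls, whose alternatives were chosen after seeing the data, became 12 with DESeq2, 5 with limma-voom, 5 with no filter, 0 with Xist as a covariate, and 1 to 36 with 1 library left out. The cause was not tested. The collagen median of -0.93 lay between -1.26 and -0.65 under all alternatives run. With 1 library left out, the log2 difference of Col1a1 to Col1a2 ran from -0.11 to 0.16, of Col4a1 to Col4a2 from -0.21 to 0.11, of Col3a1 to Col1a1 from -0.37 to 0.07, of Col6a1 to Col6a2 from 1.2 to 2.06 and of Col4a1 to Col1a1 from 0.98 to 1.64. With 1 library left out the log2 fold change of Col6a1 ran from -0.19 to 0.04, turning positive without control 1 (0.04) and control 2 (0.01). Of 270 values of single named genes, 237 kept direction and side of the threshold, 9 lost and 22 gained a call. No paired analysis was possible because the replicate numbers only follow the order of deposit.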
